A study of Mus musculus with 4 samples.

Results

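The genes described here code for the main protein families that bind and cut out introns: the SR proteins (symbols beginning with Srsf), the hnRNP proteins (Hnrnp), the proteins of the small nuclear ribonucleoproteins or snRNPs (Snrp), the SF3a and SF3b subunits (Sf3a, Sf3b) and the subunits of U2AF (U2af). They were taken by gene symbol from the protein-coding genes of the count table, and 54 of its 19353 genes belonged to them. By role these were 11 SR proteins, 20 hnRNP proteins, 8 proteins of the Sm ring, 2 proteins specific to the U1 snRNP, 2 specific to the U2 snRNP, 9 subunits of SF3a and SF3b, and 2 subunits of U2AF.

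Their expression was measured in muscle stem cells (MuSCs, also called satellite cells) sorted from the plantaris muscle of Pax7-CreERT2:Rosa-YFP mice. In these mice a Cre recombinase made under the control of Pax7, a satellite cell gene, is active only after tamoxifen and then switches on yellow fluorescent protein (YFP), by which the cells were sorted at 100 cells per tube. The groups were sham-operated muscle, whose skin was cut but whose tendons were left whole, and overloaded muscle at 4 days after tenotomy, in which the distal tendons of the neighbouring gastrocnemius and soleus muscles were cut so that the plantaris muscle carried their load. Each group had 2 libraries, both groups carried the same alleles and received tamoxifen, and neither the age of the mice nor how many animals stand behind each group is given in the sources used here. YFP marks any cell in which Pax7 was active at the time of tamoxifen and its descendants, whatever they have become since. The p-values below measure the spread between these libraries, which may be technical in part.

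Libraries were made by CEL-Seq2, which reads the 3′ end of polyadenylated RNA and tags every molecule it captures, before amplification, with random bases that serve as its unique molecular identifier (UMI). A count is therefore a number of molecules that were captured and sequenced, and does not grow with the length of the transcript. Totals were 269683 and 260488 UMIs in sham and 387955 and 483528 UMIs in overloaded MuSCs, of which the 54 genes took 3594 and 3361 in sham and 4727 and 5637 in overloaded muscle. All 12 satellite cell markers looked for, among them Pax7, Myf5, Myod1 and Calcr, were detected in both groups. Pax7 was counted 118 and 107 times in sham MuSCs against 108 and 137 times in overloaded MuSCs, and Calcr 37 and 57 times against 15 and 15 times. As the overloaded libraries held more UMIs, the share of both genes was lower there. Of the 12 markers, 2 were higher and 6 lower at the threshold given below.

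Splicing is carried out by the spliceosome, which assembles on each intron from the U1, U2, U4, U5 and U6 snRNPs. Each of the U1, U2, U4 and U5 snRNPs holds a small nuclear RNA around which the Sm proteins close a ring, and the U2 snRNP binds the branch point with the help of SF3a, SF3b and U2AF. SR proteins mostly bind exons and recruit the machinery to nearby splice sites, whereas hnRNP proteins coat nascent RNA and often act against the use of a site, so that the balance between both families sets which exons are kept. Resting satellite cells are small cells with little RNA, and leaving rest brings cell growth and higher transcription.

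In overloaded MuSCs, genes for several structural parts of the snRNPs and of SF3 were higher, led by Snrpe (2.94-fold), Sf3b6 (2.20-fold) and Sf3b5 (2.11-fold), while genes for SR and hnRNP proteins were mostly lower relative to the rest of the transcriptome, led by Srsf5 (3.19-fold lower), Hnrnph1 (2.50-fold lower) and Srsf7 (2.16-fold lower). Of the 54 genes, 48 had enough counts to be tested. At a Benjamini-Hochberg adjusted p of 0.1 over all 7228 genes tested by the quasi-likelihood test of edgeR, 10 of the 48 were higher and 20 were lower, and 18 did not pass. Among all genes tested 25.8% were higher and 26.3% were lower, so that changes were common in these libraries, and the share of lower genes among the splicing genes (41.7%) stood above the background while that of higher genes (20.8%) stood somewhat below it. Their median log2 fold change was -0.23, against 0.05 over all genes tested. The fall of the SR and hnRNP genes as a group was not kept with the offsets for abundance described below. There 7 of their 28 tested genes were higher (25%) and 4 lower (14.3%), with a median of 0.11, against 21.3% and 21.8% of all genes tested. In CPM (counts brought to the same total in each library) normalized by TMM, which sets the scale on the assumption that most genes do not differ, 14 of the 48 had both overloaded libraries above both sham libraries and 24 had both below, where 37.5% and 35.4% of all genes tested did so.

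The calls depended on the scale. Fold changes in these libraries fell with abundance across the transcriptome. With offsets that remove this dependence, 18 splicing genes were higher and 6 lower, against 21.3% higher and 21.8% lower among all genes tested, and the median of the 48 became 0.28. All 10 genes higher under TMM were higher again under the offsets, whereas of the 20 lower genes 6 were lower, 1 was higher and 13 passed in neither direction. Counted per tube of 100 cells with no scaling, 31 were higher and 2 lower, against 62.0% and 4.58% of all genes tested, with the median of all genes shifted by 0.96 on the log2 scale. That shift moves every gene upward, so that it keeps higher genes higher by construction and says nothing of how stable their calls are. With library sizes alone, which shift the median by 0.28, 18 were higher and 11 lower, against 37.3% and 18.7% of all genes tested, so that the share of higher genes (37.5%) was that of the background. DESeq2, which tested 49 of the 54, called 3 higher and 10 lower, against 9.34% and 11.7% of the genes it tested. In bulk libraries such as these, fewer cells of a type and less RNA per cell cannot be told apart.

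**Figure D1:**
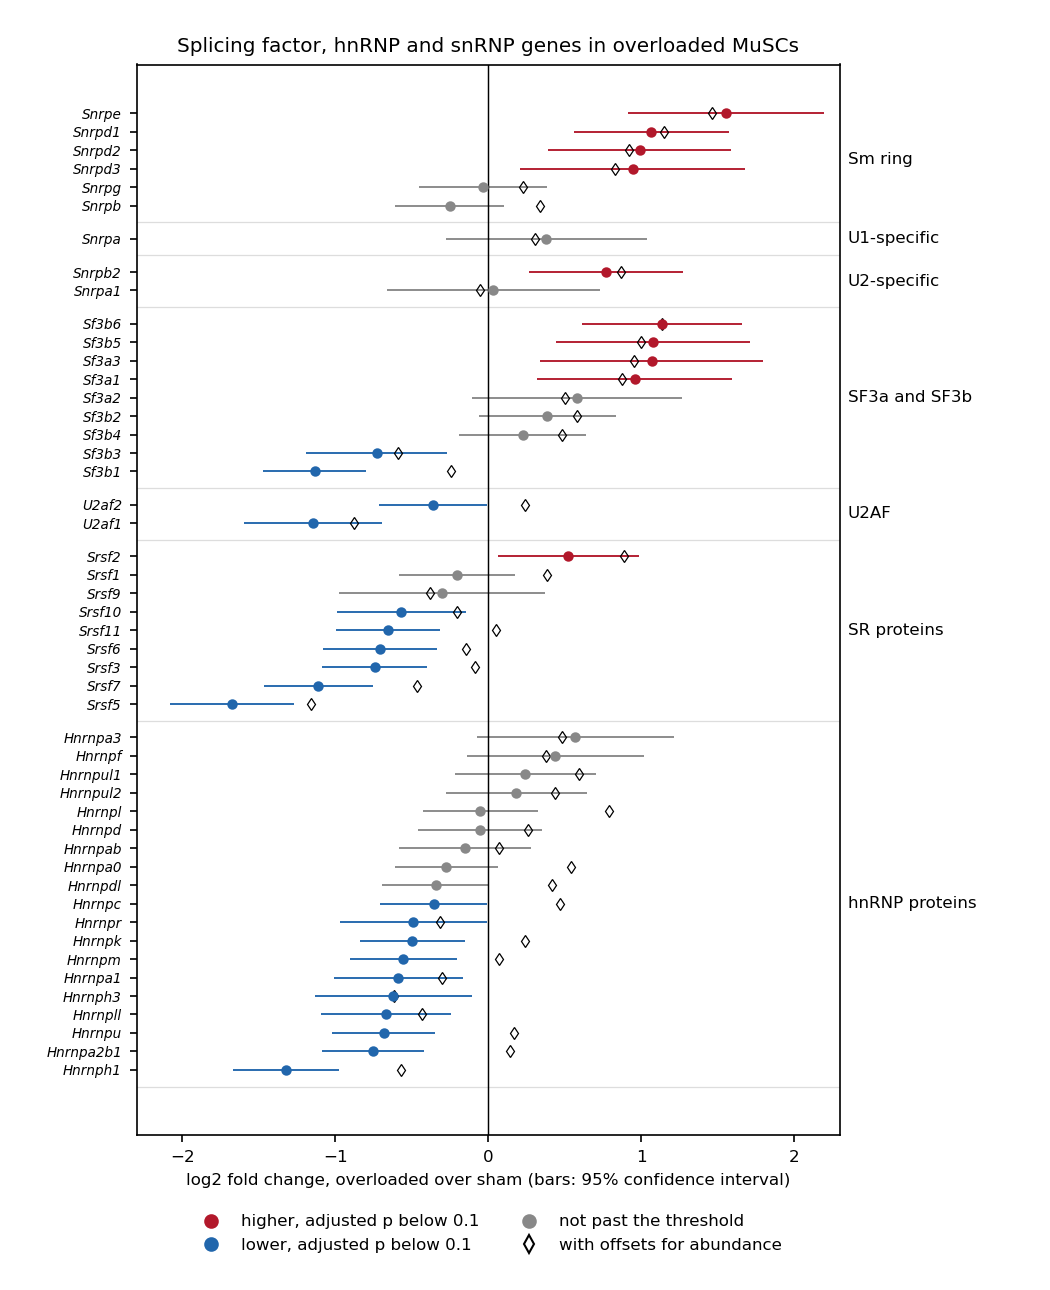
Log2 fold change of overloaded over sham MuSCs for the 48 tested splicing genes, grouped by role, with points and bars for the estimate and 95% confidence interval under TMM and open diamonds for the estimate with offsets for abundance. The points of the Sm ring and of SF3 lie mostly to the right of 0, and the diamonds of the 10 genes called higher lie to the right of 0 too. Most hnRNP and SR points lie to the left of 0, and most of their diamonds lie nearer to 0 or to its right.

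The promoters of 4 of these genes are shown, because they belong to the snRNP and SF3 genes with the largest rise and to the SR genes with the largest falls. Each sequence is the 250 bases before the RefSeq start site on the coding strand of GRCm38.p6, for Snrpe chr1:133610281-133610530 (minus strand), for Sf3b6 chr12:4817358-4817607 (plus strand), for Srsf5 chr12:80945249-80945498 (plus strand) and for Srsf7 chr17:80207306-80207555 (minus strand). The windows of Snrpe, Sf3b6 and Srsf7 reach into the gene as GENCODE M21 draws it, by most for Sf3b6, whose gene starts there at 4817544, so that positions count from the RefSeq start only. Capitals mark the ETS core CCGGAAG or its reverse complement in Sf3b6, Srsf5 and Srsf7, and the NRF1 core GCATGCGC, which is the later run of capitals, in Srsf7.
Snrpe: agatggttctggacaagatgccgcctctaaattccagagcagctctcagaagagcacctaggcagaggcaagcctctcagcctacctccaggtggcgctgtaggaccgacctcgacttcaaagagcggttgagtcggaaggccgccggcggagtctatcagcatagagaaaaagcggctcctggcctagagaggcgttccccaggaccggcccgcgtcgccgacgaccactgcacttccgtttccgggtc
Sf3b6: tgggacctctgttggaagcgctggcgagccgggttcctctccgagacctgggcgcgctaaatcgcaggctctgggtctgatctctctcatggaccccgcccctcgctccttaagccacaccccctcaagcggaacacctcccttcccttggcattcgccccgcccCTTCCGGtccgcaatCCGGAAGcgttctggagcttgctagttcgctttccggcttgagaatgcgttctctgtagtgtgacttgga
Srsf5: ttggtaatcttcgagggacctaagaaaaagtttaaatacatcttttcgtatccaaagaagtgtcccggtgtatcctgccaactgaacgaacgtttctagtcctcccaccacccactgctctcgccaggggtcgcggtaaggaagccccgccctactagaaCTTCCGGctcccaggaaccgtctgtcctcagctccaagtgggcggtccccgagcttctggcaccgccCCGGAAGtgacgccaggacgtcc
Srsf7: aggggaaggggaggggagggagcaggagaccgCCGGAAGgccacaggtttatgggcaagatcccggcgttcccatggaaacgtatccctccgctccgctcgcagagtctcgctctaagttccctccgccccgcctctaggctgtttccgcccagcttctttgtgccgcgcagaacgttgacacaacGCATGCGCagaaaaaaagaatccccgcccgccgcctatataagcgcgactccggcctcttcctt
With the base before the start site as -1, the ETS core began in Sf3b6 at -85 and -70, in Srsf5 at -90 and -23 and in Srsf7 at -218. It thus stood before a gene that was higher and before genes that were lower. Snrpe held neither CCGGAAG nor GCATGCGC on either strand, and other forms of these sites were not looked for.

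Of the 54 splicing genes, 47 had a start site in the RefSeq promoter table, with 65 windows of 250 bases between them. On either strand, the ETS core CCGGAAG was present in 29.2% of these windows and in 6.91% of all 32851 windows of the table. It was in 4 of the 8 windows of the genes called higher and in 5 of the 26 windows of those called lower. The E-box CACGTG was in 7.69% of the windows of splicing genes against 6.02% of all, the NRF1 core GCATGCGC in 4.62% against 2.26%, the CCAAT box CCAAT in 44.6% against 33.8% and the TATA box TATAAA in 9.23% against 12.4%. None of these 5 motifs contains another. The windows of the splicing genes were also richer in G and C, with a median of 60.8% against 52.4%, and held a median of 19 CG dinucleotides against 6. These matches describe the letters of the windows, and whether any factor bound there was not measured.

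The Sm proteins form the ring that closes around the small nuclear RNAs of the U1, U2, U4 and U5 snRNPs, and most of their measured mRNAs rose. Of the 6 of 8 Sm ring genes with enough counts, 4 were higher and 0 lower, with a median log2 fold change of 0.97 under TMM and 0.87 with offsets for abundance. Among all genes tested 25.8% were higher and 26.3% lower under TMM. Snrpe, which codes for the SmE protein (ENSMUSG00000090553, chr1:133603871-133610291, minus strand, GRCm38), was counted 10 and 11 times in sham MuSCs against 52 and 69 times in overloaded MuSCs. In TMM-normalized CPM these were 43.5 and 49.8 against 135.2 and 139.7. Both overloaded libraries stood well above both sham libraries, and the log2 fold change was 1.55 (standard error 0.30, edgeR adjusted p = 0.0006). With offsets it was 1.46, and per tube 2.51. The 3′ end of Snrpe has 1 near-identical copy in the genome, which had 0 UMIs in the 4 libraries.

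Snrpd1, which codes for SmD1, was counted 25 and 20 times in sham MuSCs against 71 and 114 times in overloaded MuSCs, or 109 and 90.6 CPM against 185 and 231 CPM. Its overloaded libraries differed from each other by more than those of Snrpe but did not reach down to the sham libraries, and the log2 fold change was 1.07 (standard error 0.24, edgeR adjusted p = 0.0018). Snrpd2, which codes for SmD2, went from 20 and 12 counts to 56 and 68, that is from 87.1 and 54.4 CPM to 146 and 138 CPM. Its log2 fold change was 0.99 (standard error 0.28, edgeR adjusted p = 0.0094), and it lost its call without sham replicate 2 (0.66, adjusted p = 0.15). Snrpd3, for SmD3, also passed, with 9 and 12 counts in sham and 36 and 43 in overloaded MuSCs.

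The other measured genes of the ring, Snrpb and Snrpg, did not pass. Snrpb, which codes for the SmB proteins and was the most abundant Sm gene, was counted 94 and 81 times in sham MuSCs against 121 and 166 times in overloaded MuSCs. Those were 409 and 367 CPM against 315 and 336 CPM, so that the overloaded libraries were slightly below the sham libraries, and the log2 fold change of -0.25 did not pass (edgeR adjusted p = 0.24). With offsets it was 0.34 and per tube 0.71, so that its sign depended on the scale. Snrpg, for SmG, had CPM of 196 and 208 in sham and 185 and 209 in overloaded MuSCs, which overlap. Snrpf and Snrpn had too few counts to be tested. Snrpf, for SmF, was counted 1 and 0 times in sham MuSCs against 0 and 3 times in overloaded MuSCs, and Snrpn, an imprinted relative of Snrpb, 1 and 1 times and 4 and 2 times.

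Beside the ring, each snRNP carries proteins of its own. For the U2 snRNP, Snrpb2, which codes for a protein that binds the U2 RNA, was higher, with 30 and 21 counts in sham and 81 and 88 in overloaded MuSCs (log2 fold change 0.77, edgeR adjusted p = 0.0145), whereas Snrpa1, which codes for its partner in the U2 snRNP, had CPM of 100.1 and 72.5 in sham and 112 and 68.9 in overloaded MuSCs, with overlapping groups. For the U1 snRNP, Snrpa, whose protein binds a stem-loop of the U1 RNA, had CPM of 118 and 54.4 in sham and 112 and 113 in overloaded MuSCs and did not pass, and Snrpc, whose protein helps U1 to hold the 5′ splice site, was counted between 5 and 11 times per library and was not tested. The background was 25.8% higher and 26.3% lower of all genes tested under TMM, and 9.34% and 11.7% with DESeq2. Taken over the Sm, U1 and U2 genes, 5 of the 9 tested were higher and 0 were lower under TMM, and 2 were higher with DESeq2. Fewer than 5 were higher under TMM without sham replicate 2.

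**Figure D2:**
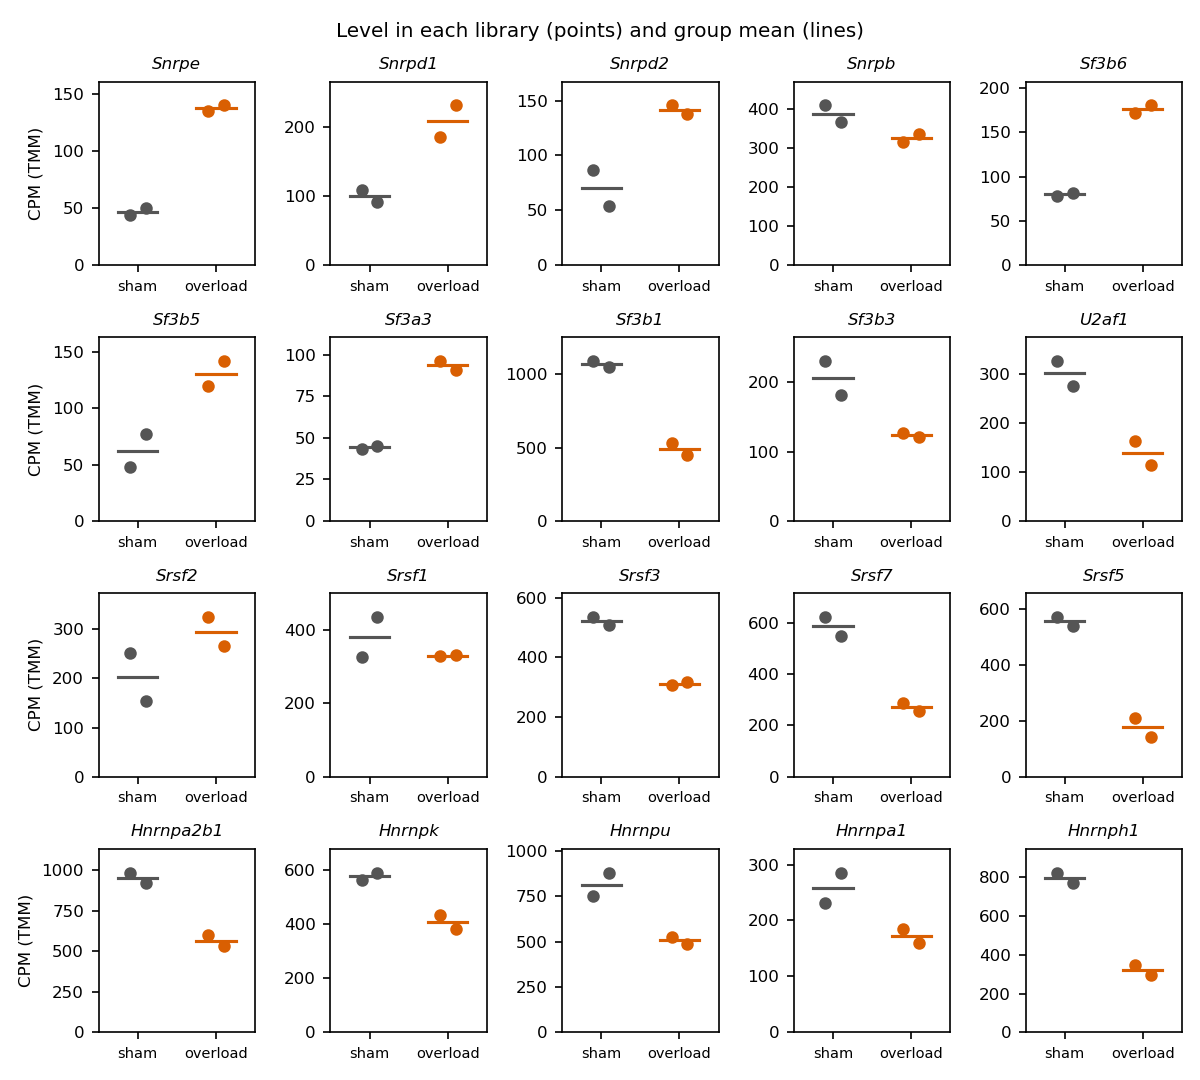
TMM-normalized CPM of 20 splicing genes in each of the 2 sham and 2 overloaded libraries (points) with the mean of each group (lines), each axis starting at 0. For Snrpe, Sf3b6, Sf3a3, Srsf5, Srsf7 and Hnrnph1 the gap between the groups is several times the distance between libraries of a group, whereas for Srsf1 the groups overlap.

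SF3a and SF3b sit in the U2 snRNP and hold it on the branch point, and their genes split by subunit. Of the 9, 4 were higher (Sf3b6, Sf3b5, Sf3a3 and Sf3a1), 2 were lower (Sf3b1 and Sf3b3) and 3 did not pass, with a median log2 fold change of 0.58 under both TMM and the offsets. The shares were 44.4% higher and 22.2% lower, against 25.8% and 26.3% of all genes tested, so that the lower share was near the background. DESeq2 called 1 higher (Sf3b6) and 1 lower (Sf3b1), or 11.1% each, close to 9.34% and 11.7% of the genes it tested. Sf3b6, which codes for the small p14 subunit at the branch point (ENSMUSG00000037361, chr12:4817544-4827659, plus strand, GRCm38), was counted 18 and 18 times in sham MuSCs against 66 and 89 times in overloaded MuSCs. In CPM it went from 78.4 and 81.5 to 172 and 180, with little difference between the libraries of a group, and its log2 fold change was 1.14 (standard error 0.25, edgeR adjusted p = 0.0014) and 1.13 with offsets. Its promoter is the one shown above with 2 ETS cores.

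Sf3b5, for another small subunit of SF3b, was counted 11 and 17 times in sham MuSCs against 46 and 70 times in overloaded MuSCs. Its log2 fold change was 1.08 (standard error 0.30, edgeR adjusted p = 0.0082), and without sham replicate 1 it was 0.74 and no longer passed (adjusted p = 0.12). Sf3a3, a subunit of SF3a, had 10 and 10 counts against 37 and 45, which in CPM were 43.5 and 45.3 against 96.2 and 91.1. The log2 fold change was 1.07 (standard error 0.34, edgeR adjusted p = 0.0185), and with all libraries thinned to the depth of the smallest it was 0.43 (adjusted p = 0.44).

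The largest subunit of SF3b went the other way. Sf3b1, the scaffold of SF3b and the subunit most often mutated in myelodysplastic disease, had the highest mean of TMM-normalized CPM of the 54 genes. It had 250 and 231 counts in sham and 203 and 221 in overloaded MuSCs. In CPM these were 1088 and 1046 against 528 and 448, so that the overloaded libraries held less than either sham library, and the log2 fold change was -1.13 (standard error 0.16, edgeR adjusted p = 3.13e-05). With offsets for abundance it was -0.24 (adjusted p = 0.14) and per tube -0.18 (adjusted p = 0.32), neither of which passed. Sf3b3, a large subunit that packs against Sf3b1, went from 231 and 181 CPM to 127 and 122 CPM (log2 fold change -0.73, standard error 0.22, edgeR adjusted p = 0.0121). It stayed lower with offsets (-0.59, adjusted p = 0.0431), but was 0.23 per tube, and it lost its call without sham replicate 1 (-0.58, adjusted p = 0.14).

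U2AF recognises the 3′ splice site, its large subunit the polypyrimidine tract and its small subunit the AG at the end of the intron. Both subunits were lower under TMM, but by different amounts. U2af1, the small subunit (ENSMUSG00000061613, chr17:31647081-31658892, minus strand, GRCm38), was counted 75 and 61 times in sham MuSCs against 63 and 56 times in overloaded MuSCs, or 326 and 276 CPM against 164 and 113 CPM. The log2 fold change was -1.14 (standard error 0.21, edgeR adjusted p = 0.00042) and -0.88 with offsets (adjusted p = 0.0023), while per tube it was -0.19 and did not pass. U2af1 has 3 near-identical copies, which held 12 UMIs over the 4 libraries. U2af2, the large subunit, had 435 and 390 CPM in sham and 315 and 328 CPM in overloaded MuSCs, a log2 fold change of -0.36 (edgeR adjusted p = 0.0922). That call was lost when any 1 of the 4 libraries was left out and with the offsets, where the log2 fold change was 0.24.

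SR proteins carry an RNA-binding domain and a tail rich in arginine and serine, and their genes were mostly lower under TMM. Of 11 SR genes, 9 had enough counts, of which 6 were lower (Srsf5, Srsf7, Srsf3, Srsf6, Srsf11 and Srsf10), 1 was higher (Srsf2) and 2 did not pass (Srsf1 and Srsf9). Lower SR genes were 66.7% and higher ones 11.1%, against 26.3% and 25.8% of all genes tested. The median log2 fold change was -0.66 under TMM and -0.14 with offsets, under which 2 were lower and 2 higher, shares (22.2% each) close to those of all genes tested (21.8% and 21.3%). Srsf4, with 0 and 0 counts in sham and 2 and 1 in overloaded MuSCs, and Srsf12, with 1 to 3 counts per library, were not tested.

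Srsf5, an SR protein also known as SRp40 (ENSMUSG00000021134, chr12:80945504-80950507, plus strand, GRCm38), showed the largest fall of the 48 genes. It was counted 131 and 119 times in sham MuSCs against 81 and 70 times in overloaded MuSCs, so that even the uncorrected counts were lower in the larger libraries. In CPM the libraries held 570 and 539 in sham and 211 and 142 in overloaded MuSCs, and the log2 fold change was -1.68 (standard error 0.19, edgeR adjusted p = 4.1e-06). It was lower on each scale, by -1.16 with offsets (adjusted p = 2.04e-05) and by -0.73 per tube (adjusted p = 0.0091). Leaving out any 1 library gave values from -1.94 to -1.35.

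Srsf7, an SR protein with a zinc knuckle, was counted 143 and 121 times in sham MuSCs against 111 and 126 times in overloaded MuSCs, and fell from 622 and 548 CPM to 289 and 255 CPM. The log2 fold change was -1.11 (standard error 0.17, edgeR adjusted p = 6.32e-05) and -0.47 with offsets (adjusted p = 0.0194), and per tube it was -0.16 and did not pass. Srsf3, the smallest SR protein, fell from 535 and 507 CPM to 307 and 316 CPM (log2 fold change -0.74, standard error 0.16, edgeR adjusted p = 0.0015), but with offsets it was at -0.09 (adjusted p = 0.69) and per tube at 0.22, neither of which passed.

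Srsf2 (SC35), the SR protein known from nuclear speckles, was the exception. It was counted 58 and 34 times in sham MuSCs against 125 and 131 times in overloaded MuSCs, or 252 and 154 CPM against 325 and 265 CPM. Both overloaded libraries were above both sham libraries, though sham replicate 1 came close, and the log2 fold change was 0.52 (standard error 0.22, edgeR adjusted p = 0.0623). It rested on sham replicate 2, without which it was 0.18 (adjusted p = 0.67), and on overloaded replicate 1, without which it was 0.40 (adjusted p = 0.16), whereas with offsets it was 0.89 (adjusted p = 0.0018). Exons of Srsf2 overlap those of Mettl23 and Mfsd11 on the opposite strand, and the strand setting of the counting is not stated. Srsf1 (ASF/SF2), the founding SR protein, was counted 75 and 96 times in sham MuSCs against 126 and 164 times in overloaded MuSCs. In CPM its groups overlapped, with 326 and 435 against 328 and 332, and the log2 fold change, -0.20, did not pass (edgeR adjusted p = 0.38), while with offsets it was 0.38 and did (adjusted p = 0.0811).

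hnRNP proteins are the most abundant proteins on nuclear RNA. Of 20 hnRNP genes, 19 were tested, and under TMM 10 were lower, 0 higher and 9 did not pass, with a median log2 fold change of -0.36. The lower share was 52.6%, where 26.3% of all genes tested were lower and 25.8% higher. With offsets 5 were higher (Hnrnpl, Hnrnpa0, Hnrnpc, Hnrnpdl and Hnrnpul1) and 2 lower (Hnrnph1 and Hnrnph3), with a median of 0.24, and per tube 12 were higher and 1 lower. In place of 10, 3 were lower with DESeq2 and 3 with library sizes alone, where 4 were higher. Fewer than 10 were also lower under TMM without sham replicate 2. Among all genes tested 21.3% were higher with offsets and 62.0% per tube, close to the shares of the hnRNP genes (26.3% and 63.2%). With DESeq2 15.8% of the hnRNP genes were lower, against 11.7% of the genes it tested. With library sizes alone 15.8% were lower and 21.1% higher, against 18.7% and 37.3% of all genes tested. Hnrnpc, which binds U-rich tracts, was lower under TMM (-0.36, edgeR adjusted p = 0.0890) and higher with offsets (0.47, adjusted p = 0.0211).

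Hnrnph1, which binds G-rich tracts (ENSMUSG00000007850, chr11:50376990-50386528, plus strand, GRCm38), showed the largest fall among them. Its counts were 189 and 170 in sham and 133 and 145 in overloaded MuSCs, which in CPM were 823 and 770 against 346 and 294. The log2 fold change was -1.32 (standard error 0.16, edgeR adjusted p = 8.88e-06), -0.57 with offsets (adjusted p = 0.0029) and -0.37 per tube (adjusted p = 0.0816), so that it was lower on each scale. Its relative Hnrnph2 was counted 1 to 4 times per library and was not tested.

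The core hnRNP genes moved less. Hnrnpa2b1, which codes for the A2 and B1 proteins that pack nascent RNA, fell from 984 and 920 CPM to 598 and 533 CPM (log2 fold change -0.75, standard error 0.16, edgeR adjusted p = 0.001), and with offsets it was at 0.14. Hnrnpu, also known as scaffold attachment factor A, fell from 749 and 879 CPM to 525 and 488 CPM (log2 fold change -0.68, standard error 0.16, edgeR adjusted p = 0.0024), and with offsets it was at 0.17. In both cases the 2 groups were clearly apart in CPM, yet the UMIs counted per tube were not lower. Hnrnpa2b1 had 226 and 203 UMIs in sham against 230 and 263 in overloaded MuSCs, and Hnrnpu 172 and 194 against 202 and 241. UMIs per tube depend on capture and sequencing depth as well as on RNA content. Their total over all genes was 1.64 times as large in overloaded MuSCs, and how much of that came from capture or depth was not measured.

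Hnrnpk, which binds C-rich RNA through KH domains, went from 562 and 589 CPM to 434 and 383 CPM (log2 fold change -0.50, standard error 0.16, edgeR adjusted p = 0.0197). Without sham replicate 2 the call was lost (-0.50, adjusted p = 0.14), and it was 0.24 with offsets and 0.46 per tube. Hnrnpa1, the partner of Hnrnpa2b1 and a classical antagonist of Srsf1, had 231 and 285 CPM in sham and 185 and 160 CPM in overloaded MuSCs (log2 fold change -0.59, standard error 0.20, edgeR adjusted p = 0.0239). Its call was lost without sham replicate 2 (-0.47, adjusted p = 0.20) or overloaded replicate 2 (-0.44, adjusted p = 0.16) and with the offsets (-0.30, adjusted p = 0.25).

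The families also differed in how abundant they were. The 28 tested SR and hnRNP genes had a median level of 339.7 CPM, against 153 CPM for the 20 tested snRNP, SF3 and U2AF genes. When the 48 genes were ranked by their mean level, the 16 least abundant held 8 higher and 2 lower genes with a median log2 fold change of 0.68, where all 2192 genes in the same range of levels had a median of 0.10, with 27.9% higher and 22.1% lower. The middle 16 held 2 higher and 7 lower genes with a median of -0.10, against -0.26 for all 1121 genes in their range, of which 19.6% were higher and 43.9% lower, about the share of lower genes among the 16. The 16 most abundant held 0 higher and 11 lower genes with a median of -0.53, against -0.79 for all 443 genes in that range, of which 72.9% were lower. The splicing genes therefore had higher medians than all genes of like abundance in each of these 3 ranges, with the widest gap in the least abundant, where 12 of the 16 were snRNP, SF3 or U2AF genes. Among the most abundant, 13 of the 16 coded for SR or hnRNP proteins. Across the 48 genes level and log2 fold change had a Pearson r of -0.66, and across all 7228 genes of -0.28, given as descriptions, since genes of the same libraries share depth and composition.

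**Figure D3:**
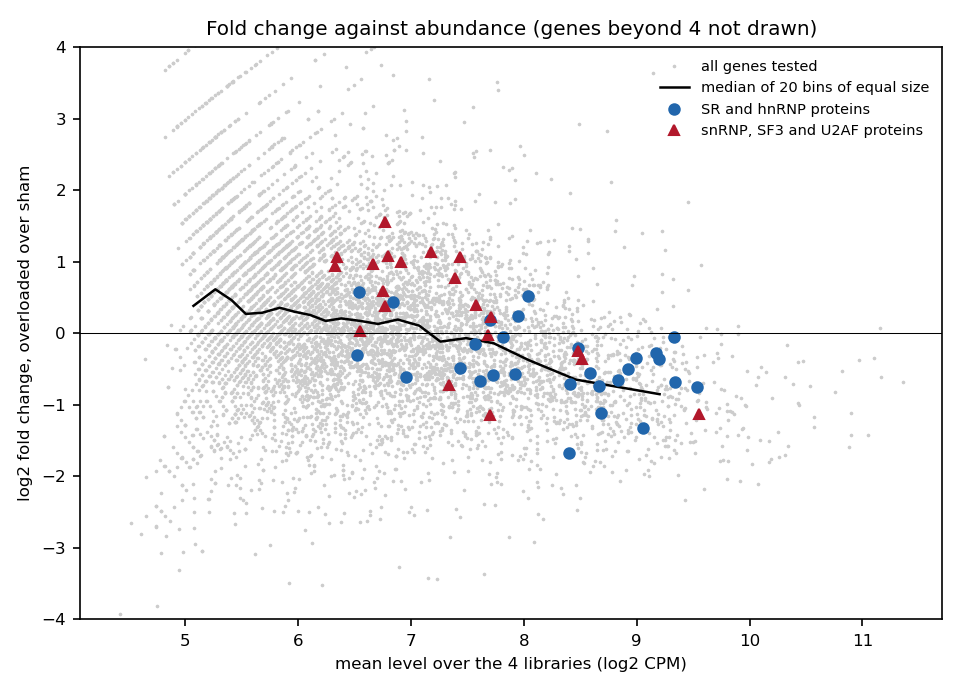
Log2 fold change of overloaded over sham against mean level in log2 CPM for all genes tested (grey; genes beyond 4 on the vertical axis not drawn), with the median of 20 bins of equal size as a line, SR and hnRNP genes as circles and snRNP, SF3 and U2AF genes as triangles. Most triangles lie above the line at levels where the circles are few, and Srsf5, Hnrnph1 and U2af1 are among the points below it.

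Summed over its members, each family gave 1 value per library. The 54 genes together took 1.33% and 1.29% of the UMIs in sham and 1.22% and 1.17% in overloaded MuSCs, or 1.31% ± 0.030 (SD, n = 2) against 1.19% ± 0.037 (SD, n = 2), a ratio of 0.909. The Sm ring took 0.0760% and 0.0703% in sham and 0.106% and 0.117% in overloaded MuSCs, a ratio of 1.53, and the 3 SF3a genes had a ratio of 2.12. SR proteins went from 0.320% and 0.299% to 0.241% and 0.222%, a ratio of 0.747, and hnRNP proteins from 0.675% and 0.678% to 0.608% and 0.578%, a ratio of 0.877. SF3a and SF3b together had a ratio of 1.02, the 6 SF3b genes alone having a ratio of 0.903. For each of these sums the 2 overloaded libraries lay on the same side of both sham libraries. With 2 libraries per group an exact two-sided permutation test cannot give a p below 0.333, which was the p of each of these sums. Per tube, the UMIs of all genes together were 1.64 times as many in overloaded MuSCs, those of the 54 genes 1.49 times, those of SR proteins 1.22 times and those of the Sm ring 2.52 times.

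**Figure D4:**
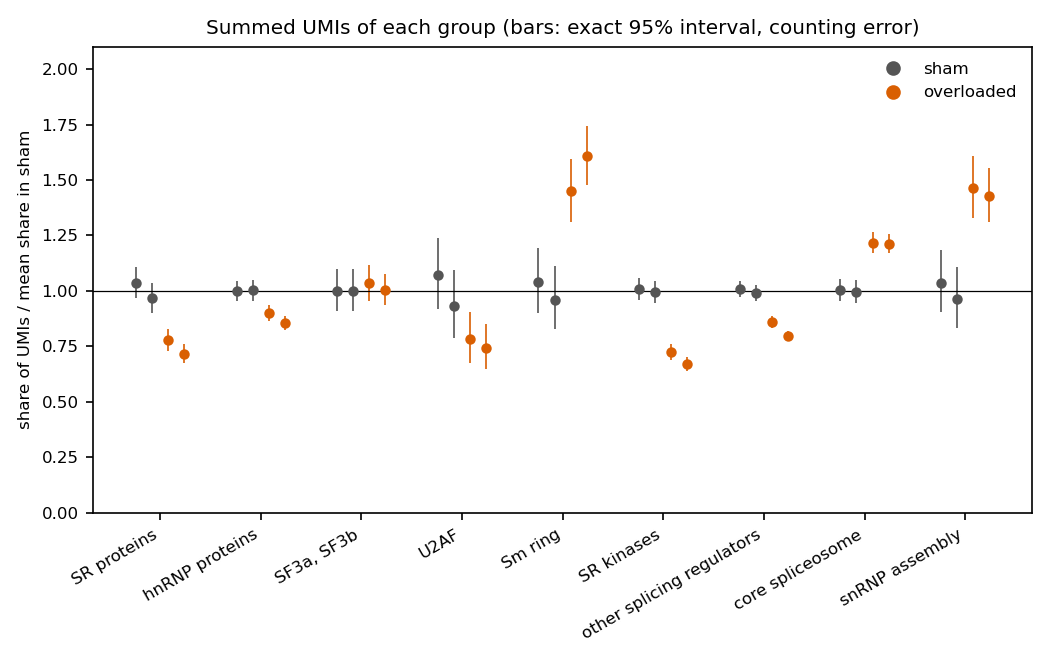
Summed share of UMIs of each gene group in each library, divided by the mean share in sham, with exact (Clopper-Pearson) 95% intervals that cover counting error only. Overloaded libraries stand above sham for the Sm ring (ratio 1.53), snRNP assembly (1.45) and the core spliceosome (1.22), and below it for SR proteins (0.747), hnRNP proteins (0.877) and SR kinases and SR-related proteins (0.696).

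Other parts of the splicing machinery, taken as 4 lists of genes outside the families above, are given for comparison, each to be read against the 25.8% higher and 26.3% lower of all genes tested. Factors that build snRNPs were measured least well, with 9 of 18 genes tested, of which 3 were higher and 1 lower (median log2 fold change 0.47). Clns1a (pICln), the chaperone that holds Sm proteins before they are placed on RNA, was counted 9 and 8 times in sham MuSCs against 58 and 83 times in overloaded MuSCs. Its levels were 39.2 and 36.2 CPM against 151 and 168 CPM, and the log2 fold change, 2.07 (standard error 0.31, edgeR adjusted p = 5.29e-05) was larger than that of any of the 48 genes. Prmt5, the arginine methyltransferase that works with pICln on Sm proteins, went from 18 and 8 counts to 40 and 64 (log2 fold change 1.03, edgeR adjusted p = 0.0208) and lost its call without sham replicate 2 (0.55, adjusted p = 0.28). Smn1, which loads the ring, also passed, with 8 and 4 counts against 20 and 25 (edgeR adjusted p = 0.0967). It did not pass with offsets (edgeR adjusted p = 0.34) or with DESeq2 (adjusted p = 0.41). Larp7, a La-related protein that binds small RNAs, was lower, from 53 and 57 counts to 62 and 72 in the larger libraries (log2 fold change -0.67, edgeR adjusted p = 0.011).

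Among 62 other genes of the core spliceosome, 51 were tested. Under TMM 15 were higher (29.4%) and 10 lower (19.6%), near the background, with a median log2 fold change of 0.15. With offsets 14 were higher (27.5%) and 4 lower (7.84%), against 21.3% and 21.8% of all genes tested. With library sizes alone 25 were higher (49.0%) and 3 lower (5.88%), against 37.3% and 18.7%. The largest rises under the naming rule were those of Lsm8 (21 and 10 counts against 61 and 81, log2 fold change 1.23, edgeR adjusted p = 0.0027) and Lsm4 (21 and 25 against 77 and 111, 1.06, adjusted p = 0.0014), which belong to the Sm-like ring of the U6 snRNP. The lower genes included Sf1, the branch point binding protein that U2 displaces (130 and 147 counts against 119 and 194, log2 fold change -0.80, edgeR adjusted p = 0.0014), and Prpf38a, which acts in the activation of the spliceosome (17 and 21 against 25 and 18, -0.77, adjusted p = 0.0974). With offsets Sf1 was at -0.07, and Prpf38a lost its call when sham replicate 2 or overloaded replicate 2 was left out.

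Kinases of SR proteins and proteins with SR-like domains were 24 genes, of which 22 were tested, and 1 was higher and 9 lower (median log2 fold change -0.32). Clk1, a kinase that phosphorylates SR proteins in the nucleus, was counted 147 and 157 times in sham MuSCs against 105 and 123 times in overloaded MuSCs, or 640 and 711 CPM against 273 and 249 CPM. Its log2 fold change was -1.37 (standard error 0.17, edgeR adjusted p = 6.58e-06), -0.70 with offsets and -0.41 per tube (adjusted p = 0.0702). Srrm2, a scaffold of nuclear speckles, fell from 862 and 888 CPM to 395 and 342 CPM (log2 fold change -1.25, edgeR adjusted p = 1.27e-05) and stayed lower with offsets (-0.45, adjusted p = 0.0128). With offsets 6 genes of the list were lower and 0 higher, against 21.8% and 21.3% of all genes tested.

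The last list held 44 other regulators of splicing, of which 37 were tested, and under TMM 4 were higher and 16 lower (median log2 fold change -0.29). With offsets 7 were higher and 6 lower (18.9% and 16.2%, median -0.01), against 21.3% and 21.8% of all genes tested. Tra2a and Tra2b, the SR-like proteins that bind GAA-rich exonic enhancers, fell together. Tra2a went from 234 and 200 counts to 141 and 165 (log2 fold change -1.46, edgeR adjusted p = 2.67e-06), and was lower with offsets (-0.64) and per tube (-0.50). Tra2b went from 124 and 120 counts to 88 and 89 (-1.42, edgeR adjusted p = 9.23e-06), and was lower with offsets (-0.86) and per tube (-0.46). Rbm24, a regulator of muscle-specific exons, rose most of the list under the naming rule, from 28 and 13 counts to 140 and 153 (log2 fold change 1.88, standard error 0.25, edgeR adjusted p = 2.11e-05), followed by Fubp3, which binds single-stranded nucleic acid through KH domains (17 and 10 counts against 54 and 84, 1.38, adjusted p = 0.0012). Both overloaded libraries of each were above both sham libraries.

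Markers of cells other than MuSCs also moved with the overload, and their part in these results was not tested. The 12 leukocyte markers summed to 2 and 7 UMIs in sham and to 78 and 212 in overloaded MuSCs, where the most abundant, Lyz2, had 0 and 0 against 17 and 38, and 8 of the 12 were at 0 in both sham libraries. The 7 myofibre markers in the file summed to 325 and 175 UMIs in sham and 1076 and 1275 in overloaded MuSCs, led by Acta1, with Myh1 and Myh2 at 0 in both sham libraries, and the 7 mural markers to 177 and 154 against 463 and 679, led by Acta2, with Myh11 at 0 in both sham libraries. The 8 endothelial markers summed to 12 and 7 against 49 and 53, led by Ptprb, with Cldn5 and Egfl7 at 0 in both sham libraries. The 8 fibroblast or fibro-adipogenic markers, led by Col3a1, summed to 1243 and 1136 UMIs against 1435 and 1671, or 5411 and 5146 CPM against 3731 and 3384 CPM, with Pdgfra at 0 in both sham libraries, and of the 6 tested 1 was higher and 4 lower. The 12 satellite cell markers, led by Sdc4, summed to 1739 and 1525 UMIs in sham and 2169 and 2511 in overloaded MuSCs. In CPM their sum was lower in overloaded MuSCs, with 7570 and 6908 against 5640 and 5085, and of them 2 were higher and 6 lower. Without overloaded replicate 2, 11 of the splicing genes were higher and 16 lower, where 1360 of all genes were higher and 1489 lower. Without overloaded replicate 1, 9 were higher and 19 lower, where 1668 of all genes were higher and 1720 lower.

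For some of these genes the counts may include reads of another locus. In the annotation 23 of the 54 overlap an exon of another gene, 6 on the same strand and 19 on the opposite strand, and 13 have a near-identical copy of their 3′ end elsewhere in the genome, Hnrnpa3 with 28 copies having the most. The copies themselves had few counts, at most 21 UMIs over the 4 libraries, for those of Hnrnpa3. How reads that match both a gene and its copy were counted is not given in the sources used here. The counts of the copies therefore cannot show how many reads were shared.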

How the data were processed

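The authors extracted UMIs with UMI-tools 1.0.0, aligned the reads to GRCm38 with HISAT2 2.1.0, assigned them to genes with featureCounts 1.6.4 and collapsed UMIs per gene with the directional setting of UMI-tools. They deposited the UMI count per gene and library, without normalization, for 2 sham and 2 overloaded libraries. The annotation release and strand setting are not given in the sources used here.

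The deposited counts were filtered by filterByExpr (minimum count 10, minimum total 15), scaled by TMM (factors 0.909, 0.908, 1.08 and 1.12) and tested with edgeR 4.0.16 in R 4.3.3 (glmQLFit, glmQLFTest, surgery as the only factor, prior count 0.125), with Benjamini-Hochberg adjustment over 7228 genes and a threshold of 0.1. CPM values are relative to the TMM-scaled UMIs of the genes tested. The common biological coefficient of variation was 9.50%. The pairs of libraries within a group had a chi-square statistic over its degrees of freedom of 1.36 (sham) and 1.57 (overloaded), against 7.61 between groups, and the code was tested on simulated data. A count of 3 corresponds to 11.5 CPM of all UMIs in the smallest library and to 6.20 in the largest. All gene identifiers matched GENCODE M21, and promoters are from RefSeq (GRCm38.p6).

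The genes described, the 4 other lists and the markers were chosen with earlier results of these data known, so that their directions are not independent support. The genes named with full values were 15 fixed ones (Srsf1, Srsf2, Srsf3, Srsf5, Srsf7, Hnrnpa1, Hnrnpa2b1, Hnrnpk, Hnrnpu, Snrpb, Snrpd1, Snrpn, Sf3b1, U2af1, U2af2), the 3 largest rises and falls in each of 4 groups of roles among called genes whose mean count was 20 or more and whose groups do not overlap, and the 2 largest in each other list. Others, such as Snrpd3, Snrpb2, Snrpg and Smn1, were named after their values were seen. Alternatives were DESeq2 1.42.0, DESeq2 size factors, library sizes alone, UMIs per tube, offsets for abundance (a loess curve of span 0.3 per library), 2 other filters, thinned counts, a replicate block, an adjusted p of 0.05 and each library left out in turn. Other data of the study were not analysed here.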

Additional observations from a re-analysis of the deposited data

How the results depend on the processing

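For the 48 splicing genes, the main result of 10 higher and 20 lower became 18 higher and 11 lower with library sizes alone, 31 and 2 per tube, 18 and 6 with offsets for abundance, and 3 and 10 with DESeq2. The other 4 lists together, 23 higher and 36 lower, gave 38 higher with library sizes alone, 74 higher and 4 lower per tube, 17 lower with the offsets and 10 higher with DESeq2. Of all genes tested, 37.3% were higher and 18.7% lower with library sizes alone, and 21.3% and 21.8% with the offsets. Per tube 4481 (62.0%) were higher and 331 (4.58%) lower, and with DESeq2 967 and 1215 of 10348 (9.34% and 11.7%). Library sizes alone shifted the median of all genes by 0.28 and UMIs per tube by 0.96 (log2). Fits that left out 1 library at a time changed how many splicing genes and genes of the other lists passed. The ratio of the summed share of the splicing genes then ranged from 0.889 to 0.929. In these fits the lone library of a group was assumed to vary like the other group. Per tube that ratio was 1.49. Among the 34 tested genes that the naming rule gave, log2 fold changes that turned positive were, with library sizes alone, Srsf1 (0.075) and Snrpb (0.027); with the offsets, Srsf1 (0.38), Snrpb (0.34), Hnrnpa2b1 (0.14), Hnrnpk (0.24), Hnrnpu (0.17) and U2af2 (0.24); and per tube, Srsf1 (0.76), Srsf3 (0.22), Snrpb (0.71), Hnrnpa1 (0.37), Hnrnpa2b1 (0.20), Hnrnpk (0.46), Hnrnpu (0.28), U2af2 (0.60), Sf3b3 (0.23), Sf1 (0.18), Prpf38a (0.18) and Larp7 (0.28). The cause was not tested. Same-numbered libraries did not deviate together (correlation -0.03). With the replicate number as a block 10 splicing genes were higher and 19 lower, U2af2 no longer passing (adjusted p = 0.104 from edgeR). Of all 7228 genes tested, 1806 were higher and 1864 lower with that block, against 1868 and 1898 without it. Of the 34 genes of the naming rule, 34 kept their side of the threshold with DESeq2 size factors and with at least 10 counts in each library of a group, 27 without sham replicate 2 and 23 with DESeq2, where Sf3b5 (adjusted p = 0.103), Sf3a3 (0.175), Snrpd2 (0.110), Sf3b3 (0.141), Srsf2 (0.251), Hnrnpa1 (0.203), Hnrnpk (0.119), U2af2 (0.366), Prpf38a (0.391), Prmt5 (0.157) and Larp7 (0.138) did not pass. Genes with under about 20 counts per sham library, such as Snrpe and Sf3a3, have the widest errors, and 6 genes had too few counts for the filter, of which DESeq2 gave Snrpc an adjusted p (0.792).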

Other observations

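The small nuclear RNAs that the snRNP proteins bind are mostly not polyadenylated, and CEL-Seq2 primes on poly(A). The 82 annotated small nuclear RNA genes in the file summed to 92 and 105 UMIs in sham and to 58 and 69 in overloaded MuSCs, of which 2 genes had enough counts to be tested. These sums went the other way from the Sm protein mRNAs, which summed to 205 and 183 UMIs in sham and 411 and 568 in overloaded MuSCs. The most abundant was Gm26138, with 14 and 15 UMIs in sham and 5 and 2 in overloaded MuSCs.

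The families differed in median coding length, with ranges that overlap. The tested Sm ring genes had a median coding length of 118.5 codons. That of SR proteins was 253, of hnRNP proteins 420 and of SF3a and SF3b 501. Sf3b6 with 125 codons and Sf3b5 with 86 were the shortest SF3 genes and were higher, while Sf3b1 with 1304 and Sf3b3 with 1217 were the longest and were lower. Over the 48 genes the Spearman rho of coding length and log2 fold change was -0.29, and that of coding length and mean level was 0.26, given as descriptions across genes of the same libraries. Sf3a1, with 791 codons, was also higher, as was Sf3a3 with 501.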
